A study of Mus musculus with 6 samples.

Results

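Csf1r, Adgre1 and Cd68, 3 genes by which macrophages are recognised, and Nos2, a gene by which their polarization is read, were described in skin of mice with graft versus host disease (GVHD), the attack of grafted immune cells on the tissues of the host. The genes were chosen by their names, with earlier results of these data known, and are 4 of the 84 genes of interest on a custom qRT-PCR plate of 96 wells. Their wells were found through the plate map of the study, which pairs each well with a gene symbol and a transcript, and the transcripts listed for all 4 carried the same symbol in the RefSeq gene table used here.

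Both groups were female Balb/c mice, irradiated with 5.8 Gy at 10 weeks of age and reconstituted with 5000000 bone marrow cells, depleted of T and B cells, and 1000000 splenocytes from C57BL/6J mice (C57BL/6 in the labels). The 3 GVHD controls received the graft and, by the methods of the study, PBS in place of further cells. The 3 CpG-proB recipients were also injected with 750000 CpG-proBs, B-cell progenitors of C57BL/6J bone marrow that had been activated with the oligonucleotide CpG and expanded on OP-9 stromal cells. Skin of the back was taken at day+70 in both groups. Irradiation and graft were shared, and the groups were set apart by the injected cells. The animals are numbered here as in the labels, controls 1 to 3 and recipients 4 to 6, and there was no skin of ungrafted mice among the samples.

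Macrophages of the skin come from monocytes of the blood and from cells that settle there before birth, and they live on signals through the receptor that Csf1r encodes, which Langerhans cells and some dendritic cells carry as well. In a Balb/c host with a C57BL/6J graft they can be of host or of donor origin, and the plate does not separate the 2 sources. Macrophages exposed to interferon-γ and microbial products make inducible nitric oxide synthase, the product of Nos2, and its level is used as a reading of classical activation. Interleukin-4 and interleukin-13 drive a different state, called alternative activation, which is tied to tissue repair. Keratinocytes and other cells can express Nos2 as well. In sclerotic forms of chronic GVHD, macrophages are known as a source of transforming growth factor β.

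A Ct is the PCR cycle at which the fluorescence of a well crosses its threshold, so a lower Ct means more starting cDNA, and 1 cycle is a change of 2-fold if the product doubles in each cycle. Levels are given as −ΔCt, the mean Ct of 6 house-keeping genes of the animal minus the Ct of the gene, so that higher values mean more mRNA. The 6 house-keeping genes had a mean Ct of between 21.3 and 23.0 in the 6 animals. RNA was that of whole skin, in which fewer macrophages and less of an mRNA per macrophage cannot be told apart.

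All 4 genes gave a Ct in all 6 animals. Cd68, which encodes a glycoprotein of lysosomes and endosomes, had the lowest mean Ct, 26.0, followed by Csf1r at 26.7, Adgre1 at 27.9 and Nos2 at 29.5. Nos2 had the highest Ct of the 4 in each animal, and Cd68 the lowest in each but recipient 4, where Csf1r came first. The order is a description only, because each assay has its own primers and efficiency. The Cd68 assay joined exons 5 and 6 on chromosome 11 with a product of 143 bp, and that of Nos2 exons 25 and 26 on the same chromosome with 148 bp. The Csf1r product of 125 bp spanned exons 11 and 12 on chromosome 18, and that of Adgre1 101 bp of exons 10 and 11 on chromosome 17.

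The wells that the plate map names as negative controls also gave a Ct, between 28.21 and 30.13, which sets how late a gene can come up and still stand apart from them. The lower of the negative Ct of each animal was taken as its limit. Csf1r, Adgre1 and Cd68 came up before that limit in all 6 animals. Cd68 did so by 2.15 to 4.48 cycles and Csf1r by 1.13 to 3.61 cycles. Adgre1 stood closer, by 1.07, 1.38 and 2.39 cycles in the controls and by only 0.75, 0.50 and 0.76 cycles in the recipients. The macrophage genes were thus measured above the negative wells in every skin sample, with Adgre1 in the recipients less than 1 cycle away.

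Nos2 lay at the limit. The cycles by which it came up before the limit were −0.58, −1.64 and 1.30 in the controls and −1.32, −0.09 and −0.20 in recipients 4, 5 and 6, negative values standing for a Ct past it. Control 3 was the one animal in which Nos2 came up before the negative wells. Values of Nos2 in 5 of 6 animals are therefore reported as measured but were not separable from the signal of a negative well.

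**Figure D1:**
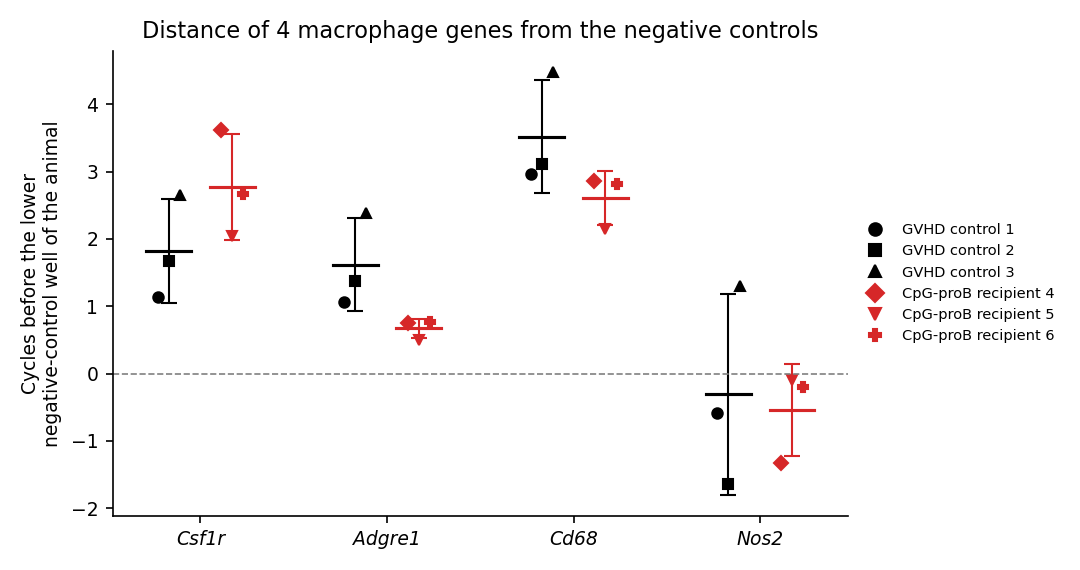
Cycles by which each of the 4 genes came up before the lower negative-control Ct of the same animal (y axis, in cycles), with 1 point per animal for GVHD controls and CpG-proB recipients; the line at 0 marks the negative control. Cd68, Csf1r and Adgre1 lie above 0 in all 6 animals, and Nos2 in 1 of 6.

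Csf1r, the receptor for the growth factors CSF1 and interleukin-34, was higher in the CpG-proB recipients. Its −ΔCt was −5.74, −4.94 and −4.58 in controls 1, 2 and 3 and −3.70, −3.99 and −3.67 in recipients 4, 5 and 6. Each recipient was above each control, and the recipients lay within 0.33 of each other. The group means were −5.09 ± 0.59 and −3.79 ± 0.18 (SD, n = 3 each). The difference of 1.30 on the log2 scale, a fold of 2.47, had a standard error of 0.51 and a 95% interval of 0.23 to 2.37 in limma, fitted over the 82 genes of interest measured in at least 2 animals of each group. The unadjusted limma p was 0.0201 and the p adjusted over all 82 genes was 0.183, so Csf1r passed the threshold of the study (a fold of at least 1.4 with a p of at most 0.05, taken here as the unadjusted p) but not the Benjamini-Hochberg adjustment with this reference. The exact two-sided permutation test gave p = 0.1, the smallest value that 3 against 3 animals allow. Without control 1 the difference was 0.98 and no longer passed, nor did it with Tbp, B2m and Gusb as reference (0.84), with the median Ct over genes of interest (0.93) or without normalization (1.01).

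Adgre1 and Cd68 lay on the other side of 0. Adgre1, which encodes an adhesion receptor widely used as the surface marker of mouse macrophages, had −ΔCt values of −5.80, −5.23 and −4.84 in the controls and −6.56, −5.53 and −5.58 in the recipients. Cd68 was at −3.91, −3.50 and −2.75 in the controls and −4.45, −3.88 and −3.53 in the recipients. The groups overlapped for both genes, and the lowest level of each was in recipient 4, the highest in control 3. Adgre1 differed by −0.60 (limma standard error 0.52, 95% interval −1.70 to 0.50, adjusted p = 0.563) and Cd68 by −0.56 (standard error 0.52, interval −1.66 to 0.54, adjusted p = 0.588). Neither passed the threshold, and neither interval excludes a change of 1 cycle downwards.

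Nos2 varied more among animals of 1 group than between the groups. It was at −7.45, −8.25 and −5.93 in the controls and −8.63, −6.12 and −6.54 in the recipients. Recipients that had received the same cells spanned 2.50 for Nos2, beside 0.33 for Csf1r. Nos2 was past the negative limit in all 3 recipients, so its span there is that of wells not separable from a negative one. The lowest level of all was in recipient 4, the highest in control 3, and the other recipients lay above the other controls. The difference was 0.12 (limma standard error 0.69, 95% interval −1.35 to 1.58, adjusted p = 0.985). With an interval this wide, changes of more than 2-fold in either direction were not excluded for Nos2.

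Of the 4 genes, 1 passed the threshold of the study, against 17.1% of all 82 genes tested, and 1 had groups that did not overlap, against 20.7%. None passed an adjusted p of 0.05, which 2.44% of the genes did. The median difference of the 4 was −0.22, beside 0.11 for all genes tested. A count of 1 in 4 is near the background of the plate and carries no result about these genes as a set. Csf1r stood 8th from the highest among the 82 differences.

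**Figure D2:**
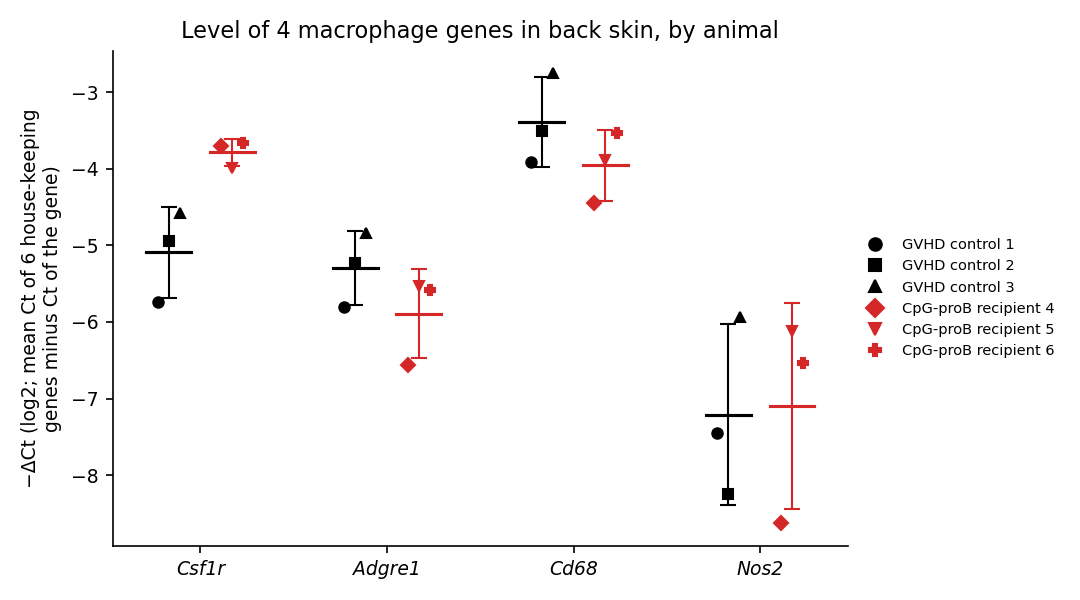
Level of each of the 4 genes as −ΔCt (y axis, log2 scale, 6 house-keeping genes as reference) in GVHD controls and CpG-proB recipients, with 1 point per animal and the group mean ± SD (n = 3) beside them. The Csf1r points of the recipients lie between −3.99 and −3.67, all above the controls, and the groups overlap for the other 3 genes.

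A difference in Ct between 2 genes of the same animal needs no house-keeping gene. It is free of the amount of cDNA loaded if both assays have the same efficiency, which was not measured, and stand clear of the negative wells. For 2 genes A and B, A over B is here the Ct of B minus the Ct of A, on a log2 scale. Only its change between animals is read, since its own size holds the efficiencies of both assays. Of the 6 pairs that the 4 genes form, 2 had groups that did not overlap, Csf1r over Cd68 and Csf1r over Adgre1, beside 26.1% of all 3321 pairs of the 82 genes measured in every animal. A count of 2 in 6 is near that background.

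Csf1r over Cd68 was −1.83, −1.44 and −1.83 in controls 1, 2 and 3 and 0.75, −0.11 and −0.14 in recipients 4, 5 and 6. The lowest recipient lay 1.30 above the highest control. In every control Csf1r came up later than Cd68, while in recipients 5 and 6 they came up within 0.14 cycles of each other and in recipient 4 Csf1r was the earlier. The means were −1.70 ± 0.23 and 0.17 ± 0.51 (SD, n = 3 each), which differed by 1.87, a fold of 3.65. The exact two-sided permutation p was 0.1, the smallest possible, and 0.5 after adjustment over the 10 pairs tested.

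Csf1r over Adgre1 was 0.06, 0.29 and 0.26 in the controls and 2.86, 1.54 and 1.91 in the recipients. The gap between the groups was 1.25, and the SD of the 3 controls was 0.13. Adgre1 came up less than 1 cycle before the negative limit in all 3 recipients, which leaves the size of this difference uncertain. As measured the difference was 1.90, a fold of 3.73, with an exact permutation p of 0.1, or 0.5 over the 10 pairs tested.

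With Cd68 in place of the house-keeping genes, limma could be run over the other 81 genes. Csf1r over Cd68 then had a standard error of 0.50, a 95% interval of 0.83 to 2.91 and an adjusted p of 0.0113. That adjusted p was at most 0.05 for 18.5% of the 81 genes, and the groups did not overlap for 33.3%, Cd68 itself differing by −0.56 against the house-keeping genes beside a median of 0.11. The median difference of all 81 genes over Cd68 was 0.68, and Csf1r exceeded that median by 1.19 and stood 8th from the highest. Leaving out each animal in turn gave 1.57 to 2.02 for Csf1r over Cd68, and without recipient 4 the difference of 1.57 had an adjusted p of 0.0560. With Adgre1 as the reference, the interval for Csf1r was 0.83 to 2.97 and the adjusted p 0.0143, again beside 18.5% of 81 genes called, 33.3% with groups that did not overlap and a median of 0.71. With Nos2 as the reference the adjusted p for Csf1r was 0.964.

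Adgre1 over Cd68 was the steady pair. It was −1.89, −1.73 and −2.09 in the controls and −2.11, −1.65 and −2.05 in the recipients, so that all 6 animals lay within 0.46 cycles. The means of −1.90 ± 0.18 and −1.94 ± 0.25 (SD, n = 3 each) differed by −0.033 (exact permutation p = 0.9), and the 95% interval in limma with Cd68 as reference was −1.05 to 0.98. The SD of this difference over the 6 animals was 0.196 cycles, the 3rd lowest of the 3321 pairs that can be formed of the 82 genes of interest with a Ct in every animal. The median pair had an SD of 0.962. Adgre1 came up only 0.75, 0.50 and 0.76 cycles before the negative limit in the recipients, which leaves the closeness of the pair there uncertain. As measured, Adgre1 and Cd68 ran in parallel through controls and recipients. Csf1r ran as closely with both among the controls, where the SD of its difference was 0.13 against Adgre1 and 0.23 against Cd68, beside 0.18 for Adgre1 over Cd68, and its larger SD over all 6 animals holds the difference between the groups. Among the recipients its SD was 0.68 against Adgre1 and 0.51 against Cd68, beside 0.25 for Adgre1 over Cd68.

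**Figure D3:**
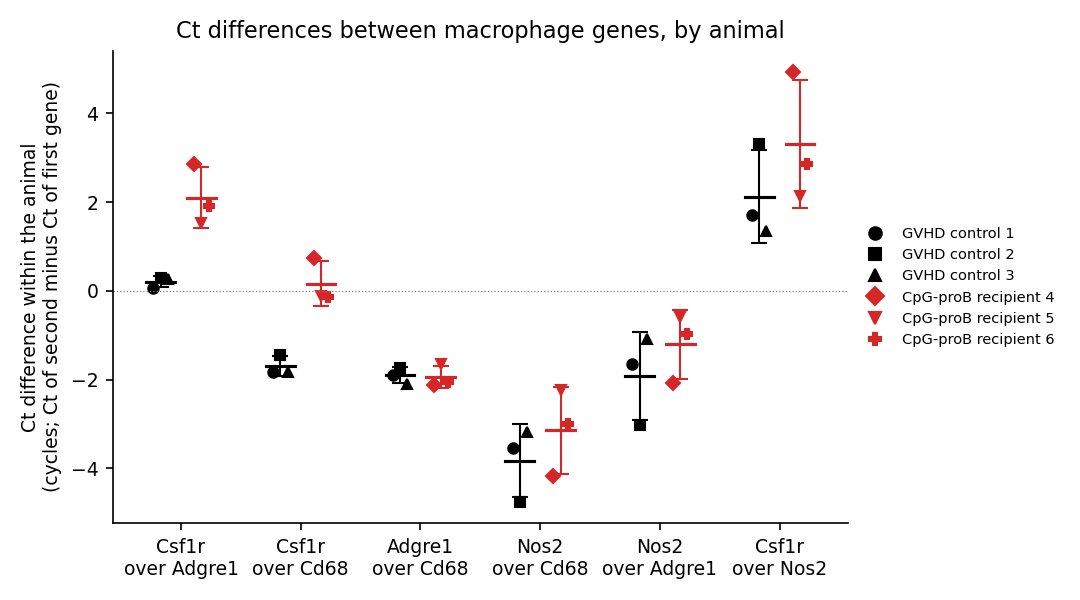
Within-animal Ct differences (y axis, cycles, log2 scale) of the pairs of macrophage genes, with 1 point per animal and the group mean ± SD (n = 3). Csf1r over Cd68 and Csf1r over Adgre1 separate the groups by 1.30 and 1.25 cycles, Adgre1 over Cd68 spans 0.46 cycles in all, and the groups overlap in each pair that holds Nos2.

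Nos2 over Cd68, the polarization gene set against a gene of the macrophages themselves, was −3.54, −4.75 and −3.18 in the controls and −4.18, −2.24 and −3.01 in the recipients. The lowest value was in control 2 and the next in recipient 4, and the groups overlapped. The means of −3.82 ± 0.82 and −3.14 ± 0.98 (SD, n = 3 each) differed by 0.68 (exact permutation p = 0.4, limma interval −0.50 to 1.86, adjusted p = 0.444). That difference equalled the median of all 81 genes over Cd68.

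When every Ct past the limit of its animal was set to that limit, Nos2 over Cd68 became −2.96, −3.11 and −3.18 in the controls and −2.86, −2.15 and −2.81 in the recipients. In the 5 animals with Nos2 at the limit these values give the distance of Cd68 from the negative well and nothing of Nos2. The difference was then 0.48 (exact permutation p = 0.1), each recipient standing above each control. A shift of Nos2 relative to Cd68 was not detectable at these levels, in either direction.

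As measured, the groups also overlapped for Nos2 against Csf1r and Adgre1. Csf1r over Nos2 was 1.71, 3.31 and 1.35 in the controls and 4.93, 2.13 and 2.87 in the recipients, a difference of 1.19 (exact permutation p = 0.4). Nos2 over Adgre1 was −1.65, −3.02 and −1.09 against −2.07, −0.59 and −0.96, a difference of 0.71 (exact permutation p = 0.4). With Ct past the limit set to it, these differences were 1.39 and 0.51, each recipient standing above each control (exact permutation p = 0.1 for both). In the 5 animals with Nos2 at the limit such values hold the distance of Csf1r or Adgre1 from the negative well, and the differences as measured hold the signal of a well that could not be told from a negative one.

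**Figure D4:**
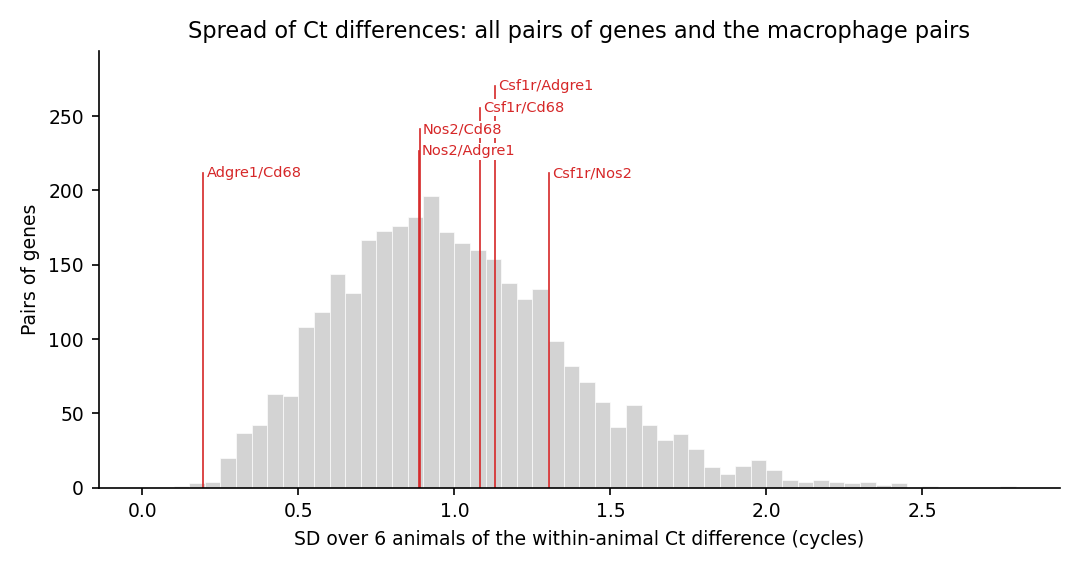
Histogram of the SD over 6 animals of the within-animal Ct difference (x axis, cycles) for all 3321 pairs of 82 genes of interest (y axis, number of pairs), with lines at the 6 pairs of macrophage genes. Adgre1/Cd68 stands at the left end at 0.196 cycles, and the other 5 lie between 0.886 for Nos2/Adgre1 and 1.30 for Csf1r/Nos2, around the median of 0.962.

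For each of the 4 genes, the genes of interest whose Ct ran most nearly parallel were taken by the same SD over the 6 animals. For Adgre1 these were Cd68 with 0.196 cycles, the collagenase gene Mmp13 with 0.317 and the growth factor gene Pdgfa with 0.331. For Cd68 they were Adgre1, Mmp13 with 0.357 and Tgfb1 with 0.366, the last encoding transforming growth factor β1. For Csf1r they were Pdgfb with 0.369, Thbs2, a thrombospondin gene, with 0.404 and Tgfbr2, a receptor gene for transforming growth factor β, with 0.406. The lists nearest to Cd68 and Adgre1 thus shared Mmp13, and none of the genes nearest to Csf1r was in either. Because the SD was taken over both groups, a gene that differs between the groups is near only to genes that differ alike.

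Nos2 had no neighbour as close as those. Its smallest SD was 0.596 cycles, with Ccl3, a chemokine gene, followed by 0.630 with Tbx21 and 0.682 with Il6. Tbx21, the transcription factor gene of T helper 1 cells, was itself past the negative limit in all 6 animals, so its likeness to Nos2 joins 2 genes near the floor of the assay. The likeness is a description over 6 animals of 2 groups, all genes of an animal sharing 1 cDNA.

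Genes of the pathways that recruit and polarize macrophages were counted next. Of the recruitment genes, the chemokine receptor gene Ccr2 and the chemokine genes Ccl2, Ccl3 and Ccl12, 0 of 4 passed the threshold in either direction. With the 6 house-keeping genes as reference all 4 differences were negative, with a median of −0.55 beside 0.11 for all genes. Another reference shifts all genes alike, and with all 8 house-keeping genes the median of all genes was 0.41. The sign of the smallest difference, −0.057 for Ccl12, therefore depended on the reference. Ccr2, the receptor by which monocytes leave the blood toward Ccl2, differed by −0.77 (limma standard error 0.56, adjusted p = 0.458). Ccl2 differed by −0.98 (standard error 0.64, adjusted p = 0.432) and was at or past the negative limit in 4 of 6 animals.

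Of 7 genes of alternative activation, Il4, Il13, Il10, Il33, Tgfb1, Stat6 and Cebpb, 1 rose and 0 fell past the threshold, with a median difference of −0.027. Il13 was at or past the negative limit in all 6 animals, so that a change of it could not be read. The gene that rose was Il33, whose product is an alarm cytokine of epithelial and stromal cells that drives the release of interleukin-4 and interleukin-13. Its −ΔCt was −4.11, −4.72 and −3.03 in the controls and −2.22, −2.02 and −2.35 in the recipients, each recipient above each control. The difference was 1.76 (limma standard error 0.54, adjusted p = 0.061). Stat6, which carries the signal of interleukin-4 and interleukin-13 to the nucleus, was at −2.23, −2.24 and −2.23 in the controls and −1.41, −1.43 and −1.93 in the recipients, also without overlap. Its difference of 0.65 did not pass the threshold (standard error 0.48, adjusted p = 0.465).

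Of 6 genes of classical activation, Ifng, Nfkb1, Il1a, Il1b, Il6 and Il27, 0 passed in either direction. Their differences ran from −1.10 for Il27 to 0.35, with a median of 0.18. Il27 was at or past the negative limit in 5 of 6 animals, all 3 recipients among them, so its difference was mostly that of wells not separable from a negative one. Over all 17 genes of these pathways 1 passed, beside 17.1% of all genes tested.

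Markers of other cells of skin were read beside the macrophage genes. The collagen genes Col1a2 and Col3a1 and the smooth muscle actin gene Acta2, of fibroblasts, myofibroblasts and muscle, came up between 21.93 and 27.1, before the negative limit in all 6 animals. Col3a1 was at a −ΔCt of −1.58, −2.51 and −3.10 in the controls and −4.10, −3.33 and −4.12 in the recipients, lower in each recipient than in each control. The groups overlapped for Col1a2 and Acta2, and for Eomes, a gene of T cells and natural killer cells, and Gata3, which T cells share with keratinocytes and hair follicles. Both were before the limit in all 6 animals too. Fcer2a, a B-cell gene, was past the limit in 5 of 6 animals. Kit, of mast cells and melanocytes, gave a Ct in 3 of 6. No gene specific to keratinocytes stood among those read here, so the share of epidermis in each sample was not measured. What other cells contributed to the differences of the macrophage genes was not tested.

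The level of each gene depended on the house-keeping reference, which the Ct differences between macrophage genes did not use. The mean Ct of B2m differed by −0.76 cycles, earlier in the recipients, while Actb came up 1.62 and Ppia 1.18 cycles later. The median difference of all genes of interest was −0.35 with Tbp, B2m and Gusb as reference and 0.86 with Ppia, Tbp and Actb. Both sets of 3 genes were picked by the smallest within-group SD in these same animals. For the first it was the SD of the Ct, for the second that relative to the mean of all 8 house-keeping genes. Csf1r was higher in the recipients with each of the 5 references tried and with none, by 0.84 to 2.05 on the log2 scale, and passed the threshold in 3 of these 6 settings. With Ppia, Tbp and Actb, a reference chosen after seeing the data, its difference of 2.05 also passed adjustment (limma, adjusted p = 0.0328), and over the 6 settings its adjusted p ran from 0.0328 to 0.623. Adgre1 was at −1.06 and Cd68 at −1.03 with Tbp, B2m and Gusb, where both passed the threshold, and at 0.15 and 0.19 with Ppia, Tbp and Actb. Both differences were negative in 5 of the 6 settings and positive with Ppia, Tbp and Actb alone, and that of Nos2 was negative in 3 and positive in 3.

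**Figure D5:**
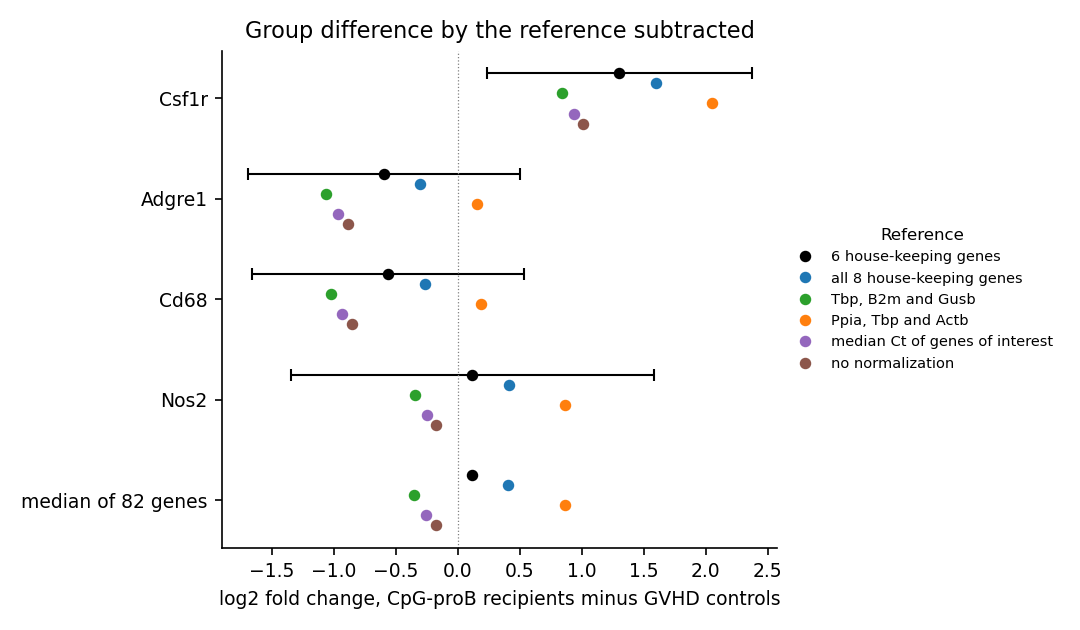
Difference in level, CpG-proB recipients minus GVHD controls (log2 scale), of each of the 4 genes with each reference for normalization; bars give the 95% interval of the limma fit with the 6 house-keeping genes, and the lowest line gives the median of all 82 genes. Csf1r lies above 0 with every reference, and the other 3 genes lie on both sides of 0.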

How the data were processed

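RNA of back skin from 3 GVHD controls and 3 CpG-proB recipients, 1 mouse per sample by the labels, was amplified by the authors with SYBR Green on a custom plate. The authors deposited raw Ct values, a single one for each well of each animal. The calling of the Ct and any repeat wells are not given in the sources used here. The study normalized to 6 house-keeping genes without naming them. Those used here (Ppia, Tbp, B2m, Rplp0, Tfrc and Gusb) are the set that earlier work on these data had matched to the deposited group values, a match not repeated here. A table of the authors' own comparison (ΔΔCt and fold per gene) was not used.

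−ΔCt was tested with limma 3.58.1 in R 4.3.3 (lmFit, eBayes, two-sided, no covariate) over the 82 genes with at least 2 Ct per group, with Benjamini-Hochberg adjustment. Within-animal Ct differences were compared by exact permutation over animals and adjusted over the 10 pairs of the 5 genes first chosen, 1 of which is not reported here. Python 3.11.15, pandas 2.3.3 and matplotlib 3.10.9 made tables and plots. The limma script was tested on simulated data. Named are the 4 genes, the members of 3 pathway lists, markers of other cells of skin, house-keeping genes, and for each of the 4 the 3 most parallel genes. The genes, lists and tests were chosen with earlier results of these data known. Amplification efficiency was not measured, and the depth of a Ct has no count behind it, so precision rests on 3 animals per group.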

Additional observations from a re-analysis of the deposited data

How the results depend on the processing

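Tbp, B2m and Gusb were the 3 house-keeping genes with the smallest within-group SD of the Ct before normalization. Relative to the mean of all 8 house-keeping genes, B2m had the largest within-group SD, 0.793 cycles. With Tbp, B2m and Gusb as reference, Csf1r differed by 0.84 and no longer passed. Adgre1 differed by −1.06 and Cd68 by −1.03, both of which then passed, and Nos2 by −0.35. With the median Ct over genes of interest as reference, Csf1r differed by 0.93 and Nos2 by −0.25, and without normalization by 1.01 and −0.18. Csf1r passed in neither. With Ppia, Tbp and Actb, an alternative chosen after seeing the data, Adgre1 differed by 0.15, Cd68 by 0.19 and Csf1r by 2.05 (limma, adjusted p = 0.0328). Setting late Ct to the negative control turned Nos2 to −0.087. Of the 4 genes, 2 passed with Tbp, B2m and Gusb (Adgre1 and Cd68) and 0 with the median Ct or without normalization. Of all genes, 14 passed with the 6 house-keeping genes, 22 with Tbp, B2m and Gusb, 22 with the median Ct, 25 with Ppia, Tbp and Actb and 6 without normalization. The cause of these shifts was not tested.

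Of the recruitment genes, 1 passed with Tbp, B2m and Gusb (Ccl2) and 2 with the median Ct (Ccl2 and Ccr2), the differences being negative. Of the alternative activation genes, 2 passed with either (Il33 higher, Tgfb1 lower), 2 with Ppia, Tbp and Actb or with each gene's own variance (Il33 and Stat6, higher), and 0 without normalization. Of the classical genes, 1 passed with Tbp, B2m and Gusb or the median Ct (Il27, a negative difference). Ccl2 was at or past the negative control in 4 of 6 animals and Il27 in 5 of 6, all 3 recipients among them for each, so neither call is read as a change of the gene.

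Leaving out each animal in turn, 1 group then holding 2 animals, gave 0.98 to 1.56 for Csf1r, −0.85 to −0.26 for Adgre1, −0.83 to −0.24 for Cd68 and −0.40 to 0.88 for Nos2. Of all genes tested 11 to 16 passed in these fits. The number of the 4 genes that passed ran from 0 to 1, of the recruitment genes from 0 to 1 (Ccl2 without control 2), of the alternative activation genes from 1 to 1 and of the classical genes from 0 to 1 (Il27 without control 1). Within animals the ranges were 1.57 to 2.02 for Csf1r over Cd68, 1.52 to 2.18 for Csf1r over Adgre1, −0.18 to 0.053 for Adgre1 over Cd68, 0.22 to 1.20 for Nos2 over Cd68, 0.16 to 1.15 for Nos2 over Adgre1 and 0.38 to 1.78 for Csf1r over Nos2. Csf1r over Cd68 at 1.87 and Csf1r over Adgre1 at 1.90 passed an adjusted p of 0.05 in limma with the second gene as reference. So did 18.5% of the 81 genes tested with each of these references, and the exact test cannot go below 0.1. Without recipient 4 the limma adjusted p of Csf1r over Cd68 was 0.0560. A filter on low levels left Nos2 out, which has no value there. No paired analysis was possible because the groups share no replicate numbers.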
